A study of Mus musculus with 69 samples.

Results

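The genes described here are 9 genes that mark or build the vascular endothelium, namely Sox7, Sox17, Sox18, Kdr, Flt1, Tek, Cdh5, Pecam1 and Nos3, together with Apold1, an endothelial gene known to be switched on early after stress. They were chosen by name, with earlier results of these data known, and so were the gene lists used further on. Counts of their calls beside the share of all probe sets are therefore descriptions and no test. Every probe set annotated to one of these 10 symbols alone was taken, which gave 15 of the 45141 probe sets on the array. All 15 passed the filter on dim probe sets, so all 10 genes were tested among 26773 probe sets. A gene is given by its probe set of highest mean over all arrays, and the other 5 probe sets are given where they differ. RNA from whole hearts of adult male CD-1 mice of 20 to 35 g, an outbred strain, was hybridised to Affymetrix HT MG-430 PM arrays. Awake mice received potassium cyanide (KCN) under the skin at 8.0 mg/kg, or saline of the same volume, and hearts were taken 1, 2, 4, 8 and 24 h later. Other mice breathed hydrogen cyanide (HCN) at 327 ppm through the nose only, or air, and hearts were taken at 1, 2, 4 and 24 h. This gave 69 arrays in 18 groups, of which 15 groups held 4 arrays and 3 groups (saline 2 h, saline 4 h and KCN 4 h) held 3. The labels number the arrays of a group as biological replicates, and each was counted as 1 mouse.

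Cyanide stops cytochrome c oxidase, so that tissues cannot use the oxygen that the blood still carries. The endothelium lines every vessel of the heart and is kept in its state by the SOXF transcription factors SOX7, SOX17 and SOX18. It senses vascular endothelial growth factor (VEGF) through the receptors KDR, which carries most of the signal, and FLT1, which binds VEGF tightly, signals weakly and also exists as a soluble decoy. TEK is the receptor for the angiopoietins, CDH5 and PECAM1 hold endothelial cells together, and NOS3 makes the nitric oxide that relaxes vessels. In whole tissue, fewer endothelial cells and less RNA per endothelial cell cannot be told apart.

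Values are the deposited log2 levels, on which a difference of 1 is a doubling, and levels are not compared between genes because probe sets differ in brightness. The heart identity of the tissue was clear: the ventricular markers, whose list averaged 12.76 to 13.08 in every group, were among the brightest. 4 features of the arrays touch the results below. The actin ratio, meaning the log2 level of the 3' actin control probe set minus that of its 5' counterpart, rises as RNA is degraded. It was 1.22 ± 0.61 (SD, n = 4) in HCN 2 h hearts against 0.45 ± 0.14 in air, and 0.98 ± 0.25 against 0.39 ± 0.04 at 24 h. In the injection arm it was higher in the controls, at 0.84 ± 0.17 in saline against 0.48 ± 0.08 in KCN at 1 h and 0.88 ± 0.09 against 0.47 ± 0.13 at 24 h (n = 4 each). The same ratio of the Gapdh control was higher in HCN hearts too, at 0.07 to 0.75 against -0.17 to -0.12 in air at 2 h. At 24 h it was 0.08 to 0.26 against -0.08 to 0.03. In the injection arm the Gapdh ratios overlapped, at -0.06 to 0.05 in saline against -0.03 to 0.11 in KCN at 1 h. At 24 h they were -0.04 to 0.1 against -0.05 to 0.09. The actin ratios of exposed and control hearts did not overlap at HCN 24 h, KCN 1 h or KCN 24 h, and barely did at HCN 2 h. With that ratio as a covariate, a fit therefore cannot tell exposure from the ratio at these times. The 3 saline 2 h arrays had an 18S ribosomal control of 11.55 ± 0.33, below the 12.89 ± 0.06 of KCN 2 h. Every other array read 12.21 or above, so as a covariate 18S stands largely for those 3 arrays. A call lost with it at KCN 2 h therefore does not tell that control group from its 18S level, and says little about a single gene. Transcripts of the epithelium of the lung, an organ with endothelium of its own, averaged 9.01 ± 1.14 over 5 genes in KCN 1 h hearts against 2.95 ± 0.06 in saline. They ranged from 2.96 to 9.33 in KCN 24 h hearts, and were high in some arrays of every air group. An adipocyte list of 3 genes had a higher mean after KCN at every time, at 6.39 ± 0.81 against 5.03 ± 0.74 at 1 h and 6.7 ± 2.08 against 4.63 ± 0.24 at 2 h. Adipoq was higher by 2.15 to 2.46 and Ucp1 by 1.88 to 3.72. Neither passed at any time (limma adjusted p 0.0817 to 0.229 for Adipoq and 0.0804 to 0.445 for Ucp1). Some of these features are given again beside member results that they move with.

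Start-site sequences show which elements lie next to the genes that moved. RefSeq promoters of 300 bases, from 250 before to 50 after the gene start on build GRCm38.p6, were found for 4 of the 10 genes (Apold1, Flt1, Kdr and Tek), and the first 3 are shown because their early changes lead the results. Capitals mark matches, on either strand, to the motifs searched: the cyclic AMP response element TGACGTCA, the AP-1 site TGANTCA, a SOX core AACAAT, an ETS site CCGGAA, a GC box GGGCGG, a STAT site TTCNNNGAA, a TATA box TATAAA and the CArG box bound by serum response factor. The Apold1 promoter lies at chr6:134981751-134982050 on the plus strand.
Apold1: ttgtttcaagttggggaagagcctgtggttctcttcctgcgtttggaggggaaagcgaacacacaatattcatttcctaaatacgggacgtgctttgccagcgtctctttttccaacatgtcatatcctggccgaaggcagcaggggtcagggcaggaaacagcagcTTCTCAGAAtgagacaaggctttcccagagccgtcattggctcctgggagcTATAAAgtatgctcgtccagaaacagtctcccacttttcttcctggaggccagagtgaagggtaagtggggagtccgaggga
The Flt1 promoter lies at chr5:147725962-147726261 on the minus strand.
Flt1: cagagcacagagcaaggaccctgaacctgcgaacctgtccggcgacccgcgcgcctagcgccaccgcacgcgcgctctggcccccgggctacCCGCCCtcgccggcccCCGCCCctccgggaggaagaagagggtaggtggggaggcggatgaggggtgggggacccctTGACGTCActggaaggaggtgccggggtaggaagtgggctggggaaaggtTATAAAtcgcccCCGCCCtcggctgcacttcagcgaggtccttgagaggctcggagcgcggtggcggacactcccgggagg
The Kdr promoter lies at chr5:75978406-75978705 on the minus strand.
Kdr: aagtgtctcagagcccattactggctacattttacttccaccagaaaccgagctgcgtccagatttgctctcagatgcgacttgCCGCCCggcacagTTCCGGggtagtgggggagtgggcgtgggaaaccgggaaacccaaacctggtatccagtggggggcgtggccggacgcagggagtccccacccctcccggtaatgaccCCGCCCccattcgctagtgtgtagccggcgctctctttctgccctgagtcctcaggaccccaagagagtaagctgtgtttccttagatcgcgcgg
The Apold1 window held a STAT match from base -83 to -75 and a TATA box from -32 to -27, counted from the gene start. Flt1 held a full cyclic AMP response element from -81 to -74, a TATA box from -31 to -26 and 3 GC boxes, whereas Kdr held no TATA box, an ETS site from -153 to -148 and 2 GC boxes. Over all 32851 promoters of this length, 1.79% held the cyclic AMP element, 13.6% a TATA box, 14.9% the ETS site, 35.7% a GC box, 8.3% the STAT site, 10.7% the SOX core, 7.81% the AP-1 site and 1.63% a CArG box. The fourth promoter, that of Tek, held 1 SOX core and no other match. A match describes these letters and no factor was measured on them.

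Over the 9 comparisons of a cyanide group with its own control, 17 of 90 gene-by-comparison pairs passed an adjusted p of 0.05 in limma, 10 of them higher and 7 lower in the exposed hearts. Of all probe sets by comparison, 8.31% did, a share given as a description because the members were chosen with earlier results known. KCN accounted for 5 of its 50 pairs and HCN for 12 of its 40. The share of all probe sets called was also higher for HCN, at 2.68% to 25.3% per comparison, than for KCN, at 0.336% to 11.9%. The genes called at least once numbered 8, and Sox7 and Cdh5 were the 2 called in no comparison. The endothelial genes did not move as a block in either route: the median change of the 10 lay between -0.24 (KCN 2 h) and 0.20 (KCN 4 h).

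**Figure D1:**
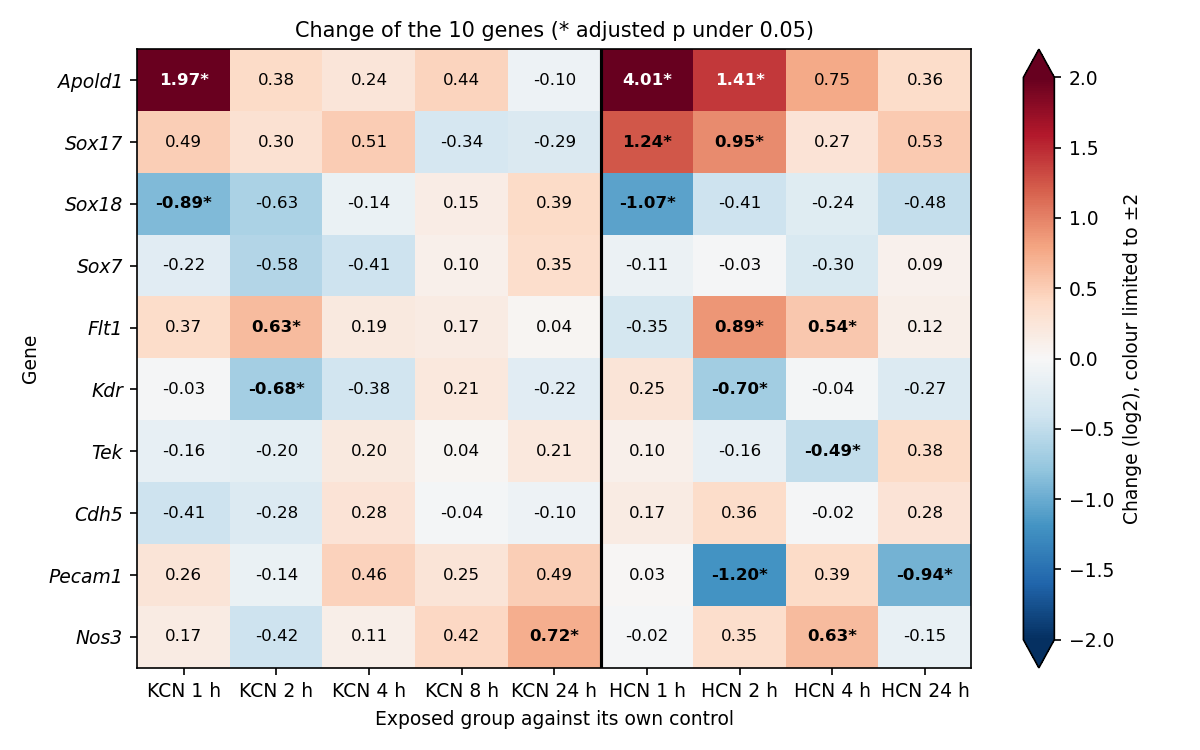
Change of the 10 genes in each exposed group against its own control, in log2 units, from a single limma fit over all arrays; rows are genes, columns are comparisons, the colour scale stops at ±2 and an asterisk marks an adjusted p under 0.05. The 17 marked cells lie mostly at 1 and 2 h, and Apold1 at HCN 1 h (4.01) is the largest.

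Apold1, which encodes an endothelial membrane protein with an apolipoprotein L domain, was the member that changed most. At 1 h of KCN it read 8.14, 9.28, 10.76 and 6.64 in the 4 exposed hearts against 6.23, 6.92, 7.47 and 6.31 in saline. The groups overlapped: 3 exposed hearts were above every control, and the one at 6.64 lay among the controls. The fitted rise was 1.97 ± 0.43 (SE), a 3.92-fold change, with an adjusted p of 0.00328 in limma. Apold1 and Sox18 were the 2 of 10 genes called at KCN 1 h, where 4.09% of all probe sets were. Leaving out the third KCN heart reduced the Apold1 rise to 1.28 (adjusted p = 0.0652 in limma), and a fit of the KCN and saline 1 h arrays alone gave an adjusted p of 0.114. The airway covariate was the mean of Scgb1a1 and Bpifa1 alone, from the lung epithelial list that was high in all 4 KCN 1 h hearts. With it the Apold1 rise was 1.83 (adjusted p = 0.0213).

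Inhaled HCN gave a larger and more even Apold1 rise. At 1 h the exposed hearts read 10.03, 10.45, 10.79 and 10.73 against 6.47, 6.36, 6.36 and 6.77 in air. No HCN heart came near a control, and the 4 exposed values spanned less than 1 log2 unit. The rise of 4.01 ± 0.43, or 16.1-fold, had a limma adjusted p of 6.07e-10 and was the 7th largest change in either direction among the 26773 probe sets tested. Apold1, Sox17 and Sox18 were the 3 of 10 genes called there, where 2.68% of all probe sets were, and none of these calls was lost under any of the 22 alternatives tried.

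The Apold1 rise had mostly passed by 2 h. HCN 2 h hearts read 6.45, 7.92, 6.86 and 5.51 against 4.97, 5.49, 5.37 and 5.27 in air, all above the controls, the fourth by little. The change was 1.41 ± 0.43 (limma adjusted p = 0.0116), one of 5 member calls at this time, where 25.3% of all probe sets were called. Without the second HCN heart, the highest for Apold1 and for the actin ratio (1.95), the change was 1.00 with an adjusted p of 0.108, and with the actin ratio as a covariate it was 0.46 with an adjusted p of 0.616. At HCN 4 h the hearts read 6.27, 6.03, 6.23 and 6.24 against 4.95, 5.69, 5.52 and 5.63 in air. The groups did not overlap, yet the change of 0.75 ± 0.43 did not pass (adjusted p = 0.346 in limma). After KCN the Apold1 change was between -0.10 and 0.44 from 2 to 24 h and passed at none of those times. The HCN change in Apold1 differed among its 4 times (limma F = 14.7, adjusted p = 2.72e-05), as it did for 27.3% of all probe sets, whereas for KCN the same test gave F = 3.42 and an adjusted p of 0.0712. The KCN test rested on single hearts: F was 7.76 (adjusted p = 0.00169) without the fourth KCN 1 h heart, the one at 6.64, and 1.7 (adjusted p = 0.338) without the third. The difference between the routes at 1 h was 2.04 ± 0.61, with a 95% interval of 0.82 to 3.26 and a limma adjusted p of 0.178. Without the third KCN heart it was 2.73, with an adjusted p of 0.00534.

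**Figure D2:**
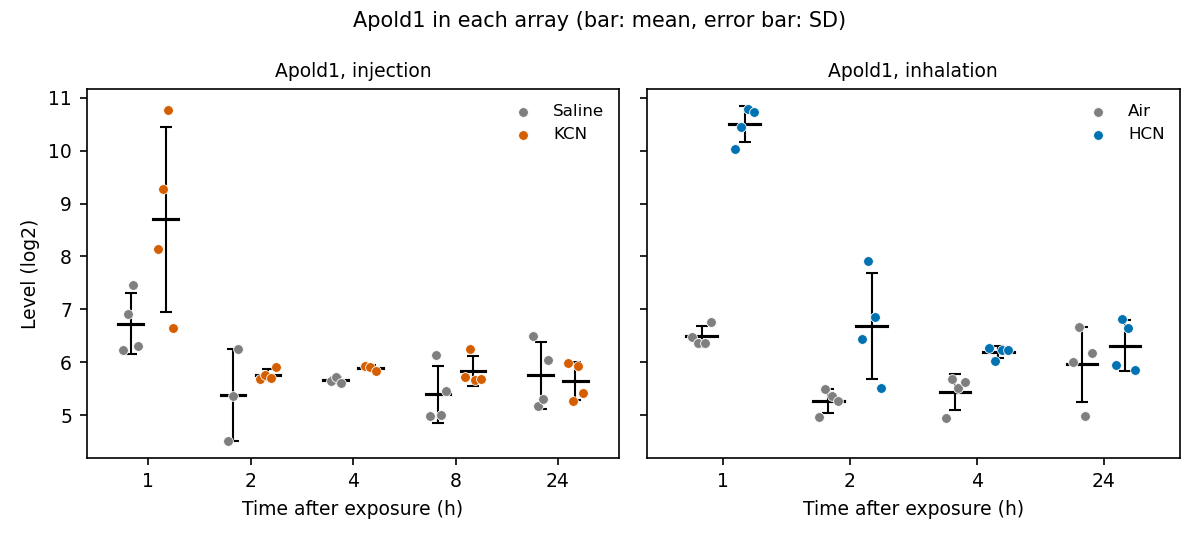
Apold1 level (log2) in each array by hours after exposure, injection on the left and inhalation on the right; points are arrays, horizontal bars are group means and error bars are SD over 3 or 4 arrays. HCN 1 h hearts sit between 10.03 and 10.79, KCN 1 h hearts spread from 6.64 to 10.76, and HCN 2 h hearts range from 5.51 to 7.92 against 4.97 to 5.49 in air.

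The genes whose levels followed Apold1 most closely included 2 subunits of AP-1. Likeness was the lower of Pearson's r over the 37 injection arrays and over the 32 inhalation arrays, computed for 12436 genes as a description, since arrays of a group share their exposure. The 5 closest were Fosb (0.893), a subunit of AP-1, Gem (0.892), a small GTPase that restrains calcium channels, Fos (0.88), the classic AP-1 subunit, Klf4 (0.878), a factor also induced by flow in endothelium, and Adamts1 (0.873), a secreted matrix protease. Among the members Sox17 ranked 20th (0.773), while Sox18 was near the other end at -0.561.

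After HCN, Sox17 rose and Sox18 fell at 1 h. Sox17, which directs arterial identity, read 8.45, 9.09, 8.47 and 8.78 at HCN 1 h against 7.45, 7.87, 7.0 and 7.51 in air. All exposed hearts were above all controls. The rise was 1.24 ± 0.27 (limma adjusted p = 0.00254), and the gene's second probe set gave 1.29 ± 0.25 (adjusted p = 0.000509). Sox18, which acts in vascular and lymphatic development, read 8.33, 7.92, 7.92 and 8.37 against 9.33, 9.55, 9.01 and 8.94, again with no overlap but below the controls. The change was -1.07 ± 0.20 (limma adjusted p = 0.000358).

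At KCN 1 h the fall of Sox18 was seen too. Its hearts read 8.21, 7.96, 7.17 and 8.64 against 8.90, 9.03, 8.45 and 9.15 in saline, so that the fourth KCN heart lay above the lowest control. The change was -0.89 ± 0.20 (limma adjusted p = 0.00483), and -0.62 with an adjusted p of 0.0738 without the third KCN heart. For Sox17 the change was 0.49 ± 0.27 and did not pass (adjusted p = 0.331), with exposed values from 7.45 to 9.26 and controls from 7.16 to 8.21. With the actin ratio, higher in those controls, as a covariate the Sox17 change was 0.87 with an adjusted p of 0.0361. That fit cannot tell exposure from the ratio at KCN 1 h. The route difference at 1 h was 0.75 ± 0.38 for Sox17 (95% interval -0.01 to 1.5, adjusted p = 0.58) and -0.19 ± 0.28 for Sox18 (-0.76 to 0.38, adjusted p = 0.913).

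Sox17 was still called at HCN 2 h, where its hearts read 8.22, 8.81, 8.13 and 7.15 against 6.94, 7.18, 6.89 and 7.50 in air. The fourth exposed heart lay among the controls and the other 3 above them. The change was 0.95 ± 0.27 (limma adjusted p = 0.00609), but 0.70 with an adjusted p of 0.0652 without the second HCN heart, and 0.14 with an adjusted p of 0.809 when the actin ratio was a covariate. The second Sox17 probe set did not pass there. Sox18 at 2 h stood at -0.63 ± 0.22 for KCN (adjusted p = 0.0657) and -0.41 ± 0.20 for HCN (adjusted p = 0.127), neither past the threshold. By 24 h the Sox18 changes were 0.39 ± 0.20 after KCN and -0.48 ± 0.20 after HCN, neither called, and the difference between them was -0.88 ± 0.28 (limma adjusted p = 0.0223). The KCN change of Sox18 differed among times (F = 6.87, adjusted p = 0.00339), as for 16.4% of all probe sets.

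Sox7, the third SOXF gene, was called in none of the 9 comparisons. Its changes ran from -0.58 to 0.35. The lowest was at KCN 2 h, where the hearts read 7.66, 7.25, 7.64 and 7.26 against 8.02, 8.14 and 7.93 in saline, all below the controls (adjusted p = 0.0852 in limma). Those saline hearts were the highest Sox7 group of the injection arm. At HCN 1 h, when Sox17 and Sox18 were both called, Sox7 changed by -0.11 ± 0.19, with a 95% interval of -0.50 to 0.27.

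**Figure D3:**
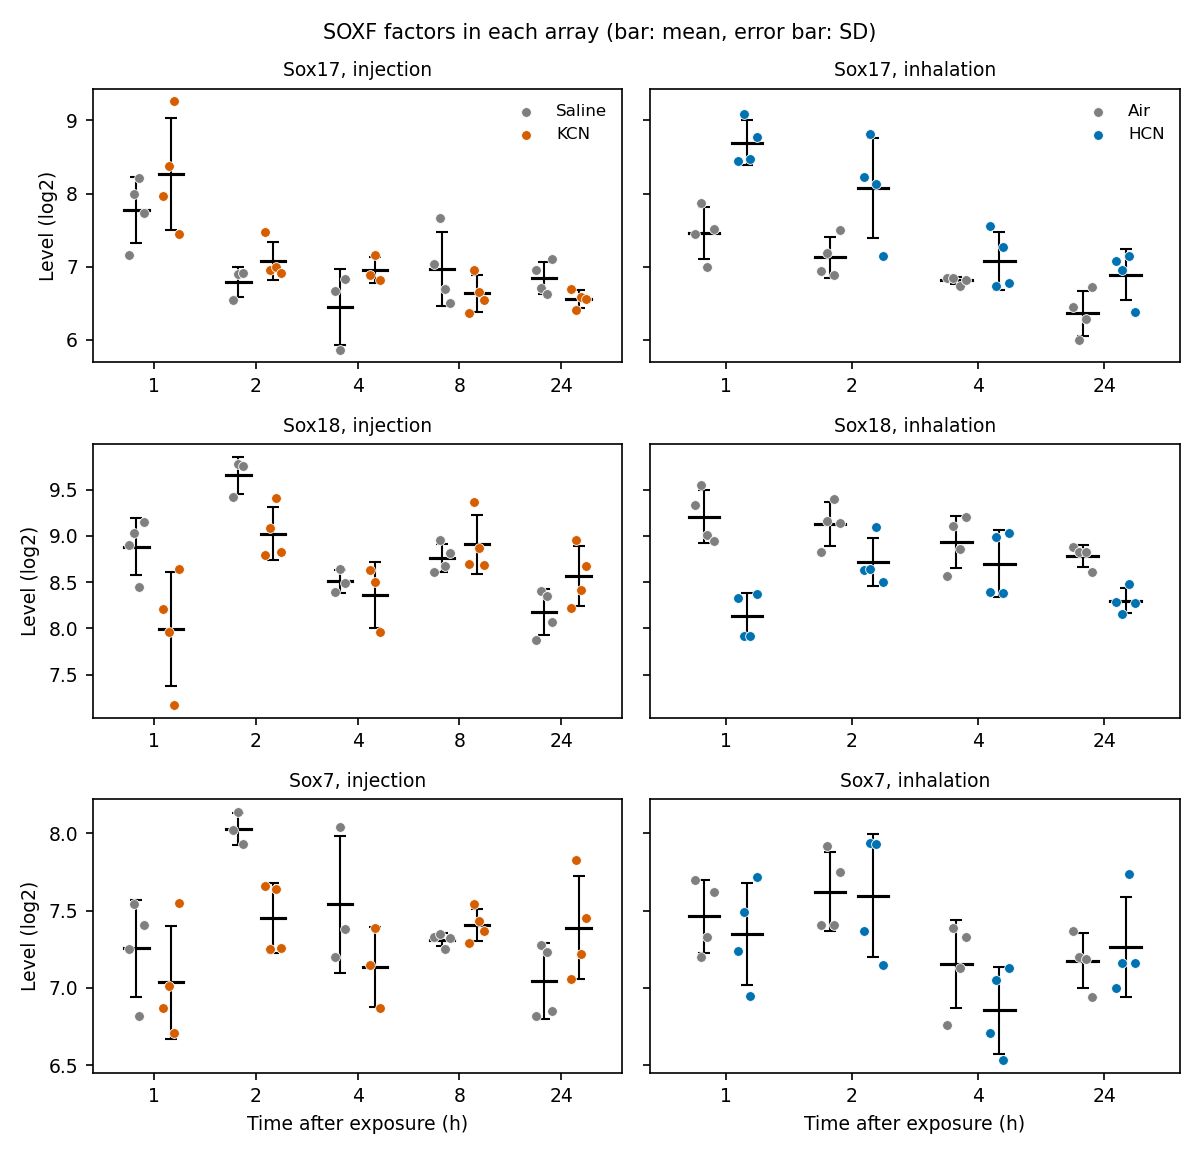
Levels (log2) of Sox17, Sox18 and Sox7 in each array by hours after exposure; points are arrays, horizontal bars are group means and error bars are SD. At 1 h of HCN the Sox17 points (8.45 to 9.09) lie above air and the Sox18 points (7.92 to 8.37) below it, while Sox7 overlaps its controls.

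The VEGF receptors moved apart at 2 h in both routes, for Flt1 on its brightest probe set, since its other probe sets differed as given below. Flt1 read 8.13, 7.95, 7.83 and 8.20 at KCN 2 h against 7.64, 7.46 and 7.09 in saline, and 8.54, 8.79, 8.79 and 8.76 at HCN 2 h against 7.77, 7.65, 7.95 and 7.96 in air. Every exposed heart was above every control in each route. The rises were 0.63 ± 0.18 after KCN (limma adjusted p = 0.0201) and 0.89 ± 0.17 after HCN (5.1e-05). Kdr read 7.04, 7.60, 7.55 and 7.58 at KCN 2 h against 8.10, 8.06 and 8.21, and 7.33, 7.57, 7.37 and 7.30 at HCN 2 h against 8.21, 7.98, 8.06 and 8.09. Here every exposed heart was below every control. The changes were -0.68 ± 0.21 after KCN (limma adjusted p = 0.0333) and -0.70 ± 0.19 after HCN (0.00516).

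The HCN 2 h calls of Flt1 and Kdr were kept under all 23 alternatives, among them leaving out the 2 arrays of highest actin ratio (0.95 for Flt1 and -0.75 for Kdr) and the actin ratio as a covariate (0.80 and -0.82). The Flt1 change was 0.47 when its 3 probe sets were averaged. The KCN 2 h calls were lost under several alternatives. Flt1 and Kdr were the 2 of 10 genes called there, against 6.59% of all probe sets. The Kdr call was lost without any one of 5 of the 7 arrays, with the change between -0.55 and -0.73 and adjusted p up to 0.149, and with the airway transcripts as a covariate (-0.62, adjusted p = 0.0681). The Flt1 call was lost without saline array 3 (0.48, adjusted p = 0.176), KCN array 1 (0.60, 0.0595) or KCN array 4 (0.57, 0.0846). With the 18S control, low in those saline hearts, as a covariate, the KCN 2 h changes were 0.57 for Flt1 (adjusted p = 0.325) and -1.13 for Kdr (0.0529). That fit cannot tell the saline 2 h group from its 18S level. The routes did not differ detectably at 2 h, by 0.26 ± 0.24 for Flt1 (95% interval -0.23 to 0.75) and -0.01 ± 0.28 for Kdr (-0.58 to 0.55).

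At other times Kdr was not called, and its changes lay between -0.38 and 0.25. Flt1 was called once more, at HCN 4 h, where the hearts read 7.91, 7.67, 7.93 and 8.16 against 7.81, 7.33, 7.15 and 7.22 in air. One air heart, at 7.81, lay inside the exposed range. The change of 0.54 ± 0.17 (limma adjusted p = 0.0322) lost its call without any one of 6 of the 8 arrays, with adjusted p up to 0.124. The HCN change differed among times for both Flt1 (F = 10.5, adjusted p = 0.00035) and Kdr (F = 4.35, adjusted p = 0.0342). The Kdr test was lost with no filter on dim probe sets (adjusted p = 0.0504), with the actin ratio (0.0596) or the 18S control (0.0502) as a covariate, without the HCN 2 h pair of highest actin ratio (0.0573), and without any one of 6 arrays (up to 0.0648). Averaged over its times, Flt1 was higher after KCN by 0.28 ± 0.08 (adjusted p = 0.0141; 1 of 10 genes called, 9.51% of all probe sets) and after HCN by 0.30 ± 0.08 (adjusted p = 0.00569; 6 of 10 genes called, 21.5%). The KCN average of Flt1 was lost with the airway transcripts (0.23, adjusted p = 0.139) or the adipocyte transcript (0.25, 0.117) as a covariate. The HCN average was lost with the actin ratio as a covariate (0.26, 0.0856) and when the 3 probe sets were averaged (0.07, 0.462).

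The 3 Flt1 probe sets did not give 1 answer. The values above are those of the brightest. At HCN 2 h the second brightest gave 0.02 ± 0.16 (limma adjusted p = 0.942) and the dimmest 0.49 ± 0.20 (0.063), so that the Flt1 rise there was called on the brightest only. At HCN 1 h the second brightest fell (-0.58 ± 0.16, adjusted p = 0.0271), where the brightest gave -0.35 ± 0.17 (0.309). At KCN 2 h the second brightest had a mean of 6.99 against 6.72 in saline. The dimmest rose at KCN 2 h (0.69 ± 0.22, adjusted p = 0.039) and fell at HCN 24 h (-1.37 ± 0.20, 1.01e-06), where the brightest gave 0.12 ± 0.17 (0.696). When the 3 were averaged, Flt1 at HCN 24 h was at -0.45 with an adjusted p of 0.0101, the reverse of the single probe set. Which transcripts each probe set reads was not analysed here.

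**Figure D4:**
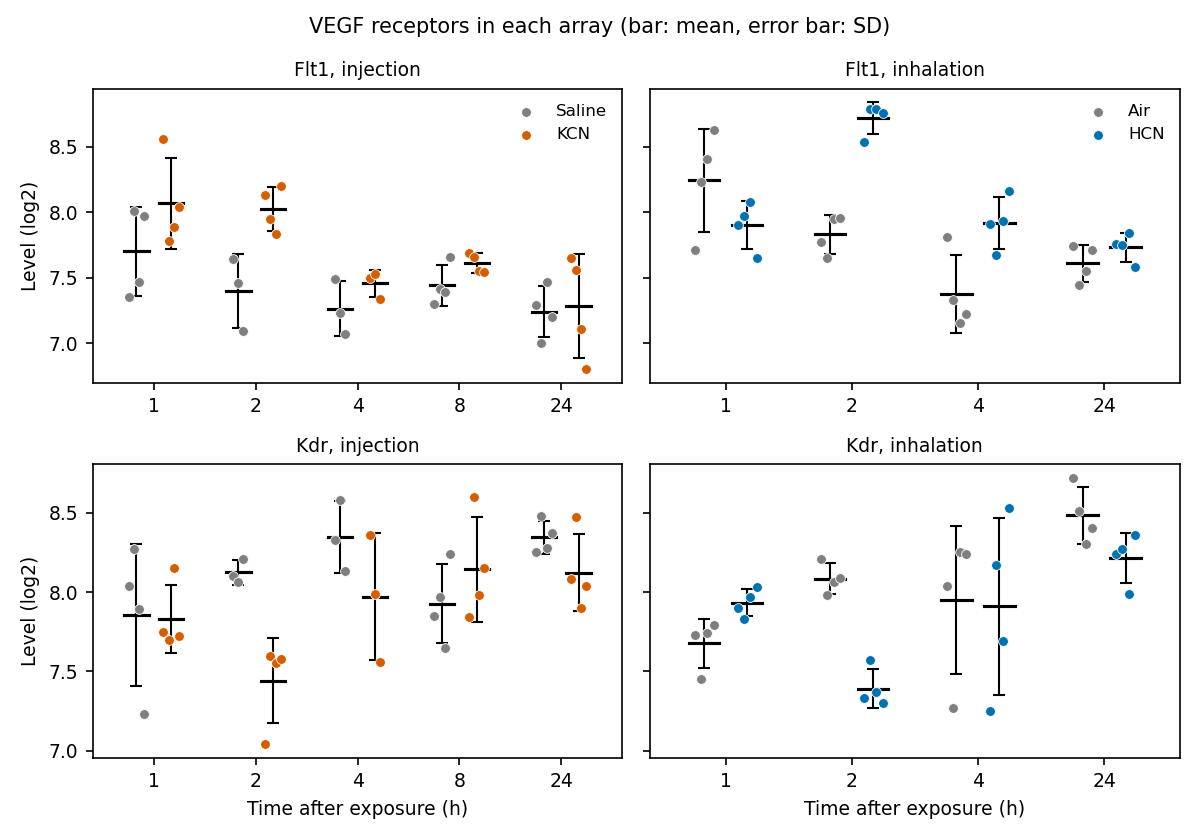
Levels (log2) of the VEGF receptor genes Flt1 (its brightest probe set only) and Kdr in each array by hours after exposure. Points are arrays, horizontal bars are group means and error bars are SD. At 2 h the Flt1 points of both exposed groups (7.83 to 8.20 for KCN, 8.54 to 8.79 for HCN) lie above their controls and the Kdr points (7.04 to 7.60 and 7.30 to 7.57) below them.

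Of 10 other genes of the VEGF and angiopoietin system, ligands and co-receptors, none passed at 1 h in either route. At KCN 2 h only Vegfa, the main ligand of both receptors, was called (-0.61 ± 0.17, limma adjusted p = 0.0164), where 6.59% of all probe sets were, and at HCN 2 h only Vegfb (-0.40 ± 0.11, 0.00443), where 25.3% were. With the 18S control as a covariate Vegfa was at -0.12 (adjusted p = 0.872), and with the actin ratio Vegfb was at 0.00 (0.995). At HCN 4 h 1 of 10 was higher and 4 lower, against 2.87% and 4.48% of all probe sets. The one higher was Pgf, a ligand of FLT1 (0.82 ± 0.23, adjusted p = 0.0185). Among the lower were Vegfc, the lymphatic VEGF (-1.15 ± 0.19, 3.47e-05), and Nrp1, a co-receptor of KDR (-0.57 ± 0.17, 0.0252). At HCN 24 h 2 of 10 were called, both lower, where 14.3% of all probe sets were called: Angpt1, the activating ligand of TEK (-1.66 ± 0.25, adjusted p = 2.47e-06), and Vegfb (-0.58 ± 0.11, 6.72e-05). At KCN 24 h the 1 called was Vegfb, higher (0.40 ± 0.11, 0.00945), where 11.9% were called. Both Vegfb calls at 24 h were lost with the actin ratio as a covariate (-0.28, 0.124, and 0.19, 0.193). That fit cannot tell exposure from the ratio at 24 h.

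Tek itself was called once, at HCN 4 h. Its hearts read 8.00, 8.54, 8.23 and 8.56 against 8.72, 8.88, 8.75 and 8.92 in air, all below the controls. The change was -0.49 ± 0.14 (limma adjusted p = 0.0233). Tek, Flt1 and Nos3 were the 3 of 10 genes called at HCN 4 h, where 7.35% of all probe sets were. The Tek call was lost without any one of 4 of the 8 arrays (change -0.37 to -0.46, adjusted p up to 0.143). At HCN 24 h Tek stood the other way, at 9.25, 9.17, 8.95 and 8.98 against 8.80, 8.70, 8.70 and 8.61. These groups did not overlap, but the change of 0.38 ± 0.14 did not pass (adjusted p = 0.0604). The HCN change of Tek differed among times (F = 6.76, adjusted p = 0.00496), and after KCN its change was between -0.20 and 0.21 throughout.

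Cdh5, the cadherin of endothelial junctions and a commonly used marker of endothelium, was, like Sox7, called in none of the 9 comparisons. Its group means lay between 7.37 and 7.92 in the injection arm and between 7.56 and 7.92 in the inhalation arm. Its lowest change was at KCN 1 h, where the hearts read 7.20, 7.62, 7.59 and 7.41 against 7.98, 8.04, 7.88 and 7.56, overlapping at 1 control (-0.41 ± 0.15, adjusted p = 0.101). The highest was at HCN 2 h (0.36 ± 0.15, adjusted p = 0.0645). The average over the HCN times, 0.20 ± 0.07, passed (limma adjusted p = 0.0465) and lost its call under many alternatives, among them testing with no filter on dim probe sets (adjusted p = 0.0708) and averaging the 2 probe sets (0.04, 0.739). The dim second probe set fell at HCN 24 h (-0.83 ± 0.21, adjusted p = 0.0042), where the first gave 0.28 ± 0.15.

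Pecam1, the adhesion molecule CD31, was lower after HCN at 2 times. At 2 h its hearts read 6.60, 5.54, 7.66 and 7.79 against 8.10, 8.25, 8.16 and 7.89 in air. All lay below the controls, the last 2 narrowly. The change was -1.20 ± 0.24 (limma adjusted p = 0.00013). At 24 h the hearts read 7.09, 6.86, 7.02 and 7.34 against 8.22, 7.89, 8.06 and 7.90, again with no overlap. That change, -0.94 ± 0.24 (adjusted p = 0.00376), made Pecam1 the 1 of 10 genes called at HCN 24 h, where 14.3% of all probe sets were.

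Pecam1 moved with the actin ratio of the arrays. At HCN 2 h the 4 actin ratios, in the order of the Pecam1 values above, were 1.49, 1.95, 0.79 and 0.64, so that the 2 hearts of highest ratio were those of lowest Pecam1. With the ratio as a covariate the Pecam1 change was -0.14 at 2 h (limma adjusted p = 0.696) and -0.12 at 24 h (0.839). At 24 h the ratios of HCN hearts (0.64 to 1.25) and air hearts (0.32 to 0.41) did not overlap, and at 2 h they barely did. That fit therefore cannot tell exposure from the ratio. Without the 2 HCN 2 h hearts of highest ratio the Pecam1 change was -0.37 at 2 h (limma adjusted p = 0.232), and without the second alone -0.75. In the injection arm saline 24 h hearts, with ratios of 0.78 to 1.00, read 6.09, 6.48, 6.33 and 6.63, below the 6.73, 7.10, 6.80 and 6.84 of KCN 24 h hearts, whose ratios were 0.34 to 0.61. That change, 0.49 ± 0.24, did not pass (adjusted p = 0.183). At HCN 4 h, where exposed and air hearts had similar ratios (0.41 ± 0.04 and 0.40 ± 0.04), Pecam1 was at 8.57, 8.82, 8.73 and 8.91 against 8.30, 8.39, 8.40 and 8.38, all above air (0.39 ± 0.24, adjusted p = 0.38).

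**Figure D5:**
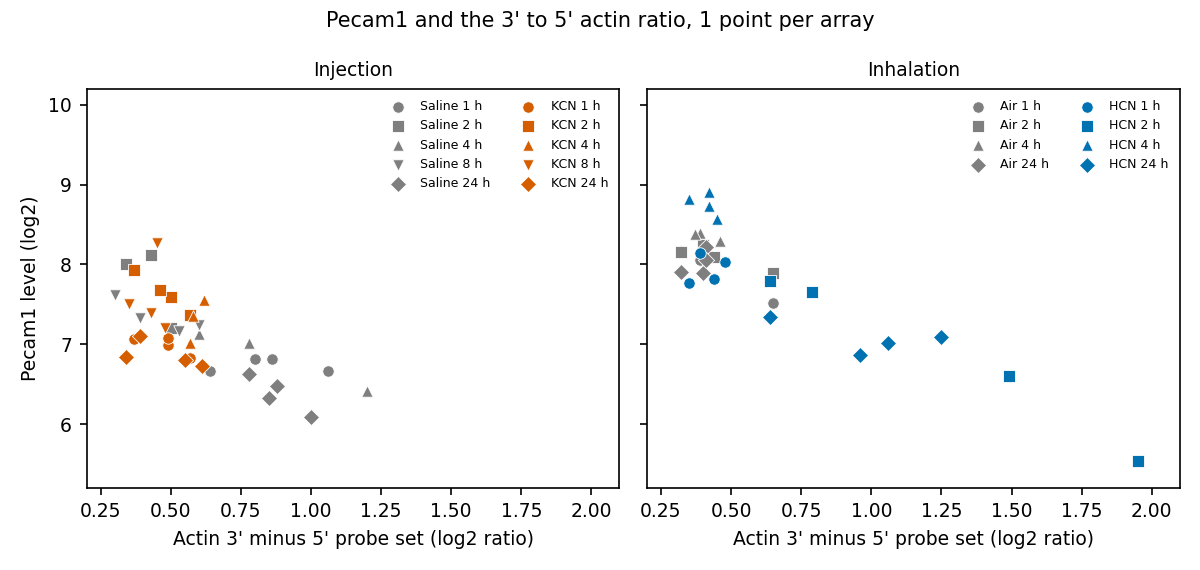
Pecam1 level (log2) against the actin ratio (3' minus 5' probe set, log2) in each array, injection on the left and inhalation on the right; colour gives exposure and shape gives time. The HCN 2 h arrays at ratios of 1.49 and 1.95 have the lowest Pecam1 of the inhalation arm (6.60 and 5.54), and the lowest array of the injection arm is a saline 24 h heart (6.09).

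Nos3, the endothelial nitric oxide synthase, was called higher at KCN 24 h and at HCN 4 h. At HCN 24 h it was not called, with a mean of 6.39 against 6.55 in air. At KCN 24 h its hearts read 6.42, 6.77, 6.50 and 6.70 against 5.63, 5.91, 6.01 and 5.95 in saline, with no overlap. The rise was 0.72 ± 0.18 (limma adjusted p = 0.00383), kept under all 22 alternatives. It was the 1 of 10 genes called at KCN 24 h, where 11.9% of all probe sets were. At HCN 4 h the hearts read 7.72, 6.77, 7.46 and 7.18 against 6.54, 6.75, 6.55 and 6.76. The second exposed heart lay just above the highest control and the others well above it. The rise was 0.63 ± 0.18 (adjusted p = 0.016), and it lost its call without the first HCN heart (0.49, 0.119) or the third (0.57, 0.0671). The mean of a neutrophil marker list also stood higher, at 5.44 ± 0.28 against 4.31 ± 0.21 at HCN 4 h and 5.43 ± 0.51 against 4.55 ± 0.36 at HCN 2 h. At HCN 4 h S100a8 (2.61) and S100a9 (2.62) were called higher, whereas Csf3r (0.16), Mmp9 (-0.03) and Cxcr2 (0.31) were not called. At HCN 2 h S100a8 (1.98), S100a9 (1.68) and Csf3r (0.48) were called, and Mmp9 (0.06) and Cxcr2 (0.22) were not. The part of these markers in the member results at these times was not tested. The Nos3 change differed among times after KCN (F = 5.28, adjusted p = 0.0133) and after HCN (F = 4.12, 0.041). The KCN test was lost without saline 2 h array 3 (F = 3.55, adjusted p = 0.069) and with the 18S control as a covariate (F = 2.38, 0.19). The HCN test of Nos3 was lost with no filter on dim probe sets (adjusted p = 0.0626), with the actin ratio as a covariate (0.0535), and without any one of 17 arrays (up to 0.108).

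None of the 10 genes was called at KCN 4 h or KCN 8 h, where 2.26% and 0.336% of all probe sets were. With unadjusted p under 0.05 there were 0 and 1, the latter being Nos3 at 8 h (0.42 ± 0.18, limma adjusted p = 0.313).

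The difference of the HCN and the KCN change was tested at the 4 shared times, on arrays that share no control. At 1, 2 and 4 h no member was called, against 0.198%, 5.73% and 1.87% of all probe sets. The number with unadjusted p under 0.05 was 3, 3 and 1. At 24 h 3 of 10 were called, against 18.8% of all probe sets, and 10.7% lower. All 3 were lower in the HCN change: Pecam1 (-1.43 ± 0.34, limma adjusted p = 0.00142), Nos3 (-0.88 ± 0.25, 0.00878) and Sox18 (-0.88 ± 0.28, 0.0223). With the actin ratio as a covariate none of the 3 passed (Pecam1 -0.05, Nos3 -0.66 and Sox18 -0.59). At 24 h that ratio was higher than control in HCN hearts and lower than control in KCN hearts, without overlap. That fit therefore cannot tell the exposures from the ratio.

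The controls were not still over the day, which matters because each change is read against them. In saline hearts 6 of the 10 genes differed among the 5 times (Sox7, Sox17, Sox18, Cdh5, Pecam1 and Nos3), against 38.3% of all probe sets, and in air hearts 3 of 10 (Sox17, Kdr and Flt1), against 16.7%. The Cdh5 test (F = 3.24, limma adjusted p = 0.0482) was lost under several alternatives, among them quantile normalization (0.0942), the 18S control as a covariate (0.102) and averaging its probe sets (0.21). Nos3 varied most in saline (F = 23.6, limma adjusted p = 3.19e-09). It read 6.29, 6.56, 6.56 and 6.38 at 1 h, 7.27, 7.45 and 7.95 at 2 h, and 5.63, 5.91, 6.01 and 5.95 at 24 h. The 2 h hearts stood above and the 24 h hearts below all 1 h hearts. In air hearts Nos3 did not pass (F = 1.87, adjusted p = 0.303).

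Of the saline steps from 1 h, that to 2 h called the most members. Against saline 1 h, 4 members were higher and 2 lower there, while 18.2% of all probe sets were called (9.67% higher and 8.49% lower). Nos3 was higher by 1.11 ± 0.19 (limma adjusted p = 2.25e-05), Pecam1 by 1.04 ± 0.26 (0.00247), Sox7 by 0.78 ± 0.21 (0.00557) and Sox18 by 0.77 ± 0.22 (0.00798). Sox17 was lower (-0.99 ± 0.29, 0.0108), and so was Apold1 (-1.35 ± 0.46, 0.0331), whose call was kept under 15 of 21 alternatives (adjusted p up to 0.258). In air hearts the same step called none of the 10 (3 with unadjusted p under 0.05), against 0.459% of all probe sets. These are the hearts with the low 18S control, and time and that feature cannot be told apart in them.

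The control group means of Apold1 and Sox17 were highest at 1 h in both routes. Apold1 in saline read 6.23, 6.92, 7.47 and 6.31 at 1 h, 4.52, 5.37 and 6.26 at 2 h, 5.65, 5.72 and 5.61 at 4 h, 4.99, 6.14, 5.01 and 5.45 at 8 h and 6.50, 5.17, 5.30 and 6.04 at 24 h. Each later group had at least 1 heart under all 1 h hearts, and the 4 h and 8 h groups lay wholly below them. The step from 1 to 8 h was -1.34 ± 0.43 (limma adjusted p = 0.0384; 2 of 10 genes and 8.94% of all probe sets called), and its call was kept under 13 of 22 alternatives (adjusted p up to 0.283). In air the steps of Apold1 to 2 and 4 h were -1.21 ± 0.43 and -1.04 ± 0.43, with no overlap and neither past the threshold (adjusted p = 0.208 and 0.118).

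Sox17 was lower than at 1 h at all later saline times, by between 0.80 and 1.32 log2 units (changes of -0.99, -1.32, -0.80 and -0.92, limma adjusted p 0.00268 to 0.0461). The Sox17 call at 8 h was kept under 10 of 22 alternatives (adjusted p up to 0.414). At 4 h it was the 1 of 10 genes called, against 3.44% of all probe sets, and at 24 h 1 of 3 (with Sox18 and Nos3), against 8.92%. In air Sox17 was lower at 24 h (-1.10 ± 0.27, adjusted p = 0.00292). Flt1 was lower in air at 4 h (-0.87 ± 0.17, 0.000422; 1 of 10 genes and 8.81% of all probe sets) and at 24 h (-0.64 ± 0.17, 0.00527), and Kdr was higher at 24 h (0.80 ± 0.19, 0.00249). The Flt1 values are again those of the brightest probe set: the second brightest gave -0.24 (adjusted p = 0.354) and -0.18 (0.501), the dimmest 0.23 (0.53) and 0.39 (0.192), and their average -0.30 (0.128) and -0.14 (0.494). These were the 3 of 10 genes called in air at 24 h against 1 h, where 14.7% of all probe sets were.

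A wider list of 21 other endothelial markers, chosen with earlier results of these data known, gave the setting of the members. At 1 h 2 were higher after KCN and 3 after HCN, none lower, against 1.57% and 1.38% of all probe sets higher. Cldn5, the tight junction claudin of endothelium, led both (1.48 ± 0.25, limma adjusted p = 9.01e-05, and 1.77 ± 0.25, 1.73e-06), with Emcn, a venous and capillary sialomucin, beside it (0.43 ± 0.13, 0.0372, and 0.45 ± 0.13, 0.0382). At 2 h the list went both ways, 3 higher and 2 lower after KCN and 4 higher and 2 lower after HCN, where 6.59% and 25.3% of all probe sets were called. S1pr1, the receptor for sphingosine 1-phosphate, was higher in both (1.37 ± 0.18, adjusted p = 1.06e-06, and 1.33 ± 0.17, 3.79e-08) and Egfl7, a secreted matrix protein of endothelium, lower in both (-0.70 ± 0.14, 0.000555, and -0.64 ± 0.13, 0.000113). At KCN 24 h 5 were higher and none lower, against 6.79% of all probe sets higher, led by Eng, a co-receptor of the BMP pathway (0.98 ± 0.17, adjusted p = 7.78e-05), and Vwf (0.84 ± 0.20, 0.00244). The list's mean level there was 8.08 ± 0.09 against 7.80 ± 0.10 (exact permutation test, p = 0.0286, the smallest that 4 against 4 arrays allow; 0.129 adjusted over the 9 comparisons), and the part of the lung epithelial transcripts in that mean was not tested. With the airway transcripts as a covariate 6 of the 21 were higher at KCN 24 h, and with the actin ratio 3.

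The median change of that list stayed between -0.17 and 0.20 in all 9 comparisons, and the median over all probe sets between -0.04 and 0.04. Of 15 further endothelial transcription factors tested, 4 were higher and none lower at HCN 1 h, against 1.38% of all probe sets higher. Foremost were Klf2, a flow-induced factor (1.57 ± 0.28, limma adjusted p = 0.000134), Klf4 (1.12 ± 0.24, 0.00199) and Elk3, an ETS repressor (0.72 ± 0.17, 0.00613). At KCN 1 h 1 was lower, Hhex (-0.75 ± 0.22, 0.0343), where 4.09% of all probe sets were called. At 2 h 3 were lower after KCN, against 3.3% of all probe sets lower, and 4 lower with 3 higher after HCN, where 25.3% were called. With the 18S control as a covariate none was called at KCN 2 h, and with the actin ratio 2 were lower and none higher at HCN 2 h, Klf4 going from 0.62 ± 0.24 (adjusted p = 0.045) to -0.05 (0.938). The largest of these changes was Hhex at HCN 2 h (-1.69 ± 0.22, adjusted p = 7.99e-08).

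Several Notch and arterial genes were lower at 2 h. Of 10 tested, 6 were lower and none higher at HCN 2 h, against 16.5% of all probe sets lower, and 3 were lower and 1 higher at KCN 2 h, against 3.3% lower. Dll4, the Notch ligand of arterial and sprouting endothelium, was lower in both (-0.98 ± 0.22, limma adjusted p = 0.000491, and -0.80 ± 0.23, 0.0254), as was Efnb2, an arterial ephrin (-0.47 ± 0.16, 0.0273, and -0.61 ± 0.17, 0.0211). Hey1 had the lowest p of the list at HCN 2 h (-0.98 ± 0.20, limma adjusted p = 0.000224). At HCN 1 h, however, Efnb2 was higher (0.64 ± 0.16, 0.0155), and so was Hes1 (0.59 ± 0.17, 0.0461), where 1.38% of all probe sets were higher. The one higher at KCN 2 h was Gja4, an arterial connexin (0.54 ± 0.18, 0.0496), and at HCN 2 h Notch1 (0.34 ± 0.14), Notch4 (0.13 ± 0.19) and Gja4 (0.35 ± 0.16) were not called. With the actin ratio, raised in HCN 2 h hearts, as a covariate 2 were lower and 1 higher there, and without its pair of arrays of highest ratio 2 were lower. With the 18S control, low in saline 2 h hearts, as a covariate none was called at KCN 2 h, but that fit cannot tell this control group from its 18S level. The median change of the list was -0.55 at HCN 2 h and -0.23 at KCN 2 h, beside -0.04 and -0.02 over all probe sets.

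Immediate early genes rose at 1 h, as Apold1 did, and some stayed higher for longer. Of 13 tested, 9 were higher at KCN 1 h and 12 at HCN 1 h, none lower, against 1.57% and 1.38% of all probe sets higher, with medians of 1.73 and 2.88. Fos rose by 2.66 ± 0.60 after KCN (limma adjusted p = 0.00512) and 4.79 ± 0.60 after HCN (6.27e-08), and Egr1, a zinc finger factor, by 2.46 ± 0.41 (3.87e-05) and 4.73 ± 0.41 (3.7e-13). At 2 h the list went both ways, also after KCN, when Apold1 was not called. Atf3 was among those higher (2.87 ± 0.44, 1.64e-05, after KCN and 4.59 ± 0.41, 2.69e-12, after HCN). Jun was lower (-1.15 ± 0.24, 0.00118, and -0.81 ± 0.22, 0.00409). At 4 h Atf3 was still higher (2.04 ± 0.47, 0.0118, and 3.88 ± 0.41, 1.08e-09), and Jun was lower after HCN (-0.72 ± 0.22, 0.0301). At 24 h none of the list was called in either route, where 11.9% (KCN) and 14.3% (HCN) of all probe sets were.

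The members varied little together. Over the 36 pairs among the 9 endothelial genes other than Apold1, the median Pearson r was 0.10 in the 37 injection arrays (range -0.49 to 0.81) and 0.01 in the 32 inhalation arrays (-0.72 to 0.52), given as a description since the arrays share groups. Against Apold1 the 9 values ran from -0.54 to 0.86 and from -0.56 to 0.77, the highest being Sox17 in each. The genes nearest to Cdh5 by the same likeness were Pald1 (0.495) and Pxdn (0.494), followed by Agrn and Slx4 (0.471 each) and Tspan2 (0.462), and no member came close: the nearest, Sox7, ranked 288th (0.232).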

How the data were processed

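Heart RNA was isolated with RNeasy Plus kits and 100 ng per mouse was labelled with biotin by in vitro transcription, per the labels' protocols. The authors deposited 1 log2 value per probe set and array. The scale was taken from the range of the values, and the submitters' processing notes list MAS5, with its role and version not given in the sources used here. Array 95th percentiles had medians of 9.24 (injection) and 9.52 (inhalation), so levels were compared only within a route. The number of arrays limits the precision. The limma p-values rest on a spread per probe set pooled over the arrays within all 18 groups, not on that of the hearts compared. For Apold1 the SE was thus 0.43 both at KCN 1 h, where the exposed hearts had an SD of 1.75, and at HCN 4 h, where it was 0.11.

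From these values, limma 3.58.1 in R 4.3.3 fitted 1 mean per group over all 18 groups (51 residual degrees of freedom, moderated with an intensity trend) to the 26773 probe sets with a group mean above 3.23, the median of all group means. Tests were two-sided, adjusted by Benjamini-Hochberg over these probe sets within each comparison, and called at 0.05. The procedure was tested on simulated data. Quality controls and marker lists were compared by exact permutation tests. The genes named are the 10 members, up to 3 genes of a pathway list by lowest p in a comparison, and the 5 genes most like Apold1 and Cdh5. Members and lists were chosen with earlier results of these data known. Alternatives changed the normalization, filter, trend, arrays in the fit, probe set rule, threshold and covariates, or left out arrays. 2 of them, the 18S covariate and leaving out 2 arrays of high actin ratio, were chosen after seeing the data.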

Additional observations from a re-analysis of the deposited data

Results flagged for a closer look

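In 150 pairs of a gene and a group of 4 arrays, 7 held an array far from the other 3, where chance alone gives about 1 in 20. They were Apold1 at 6.25 in KCN 8 h array 2 and at 6.03 in HCN 4 h array 2, Sox17 at 7.47 in KCN 2 h array 1, Kdr at 8.15 in KCN 1 h array 3, at 7.04 in KCN 2 h array 1 and at 7.45 in air 1 h array 2, and Flt1 at 8.54 in HCN 2 h array 1.

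The change of some genes differed between routes or among times. At 24 h the HCN change minus the KCN change was -1.43 for Pecam1, -0.88 for Nos3 and -0.88 for Sox18 (limma adjusted p = 0.00142, 0.00878 and 0.0223). The KCN change differed among times for Nos3 (F = 5.28) and Sox18 (F = 6.87), and the HCN change for Apold1 (F = 14.7), Flt1 (F = 10.5), Kdr (F = 4.35), Nos3 (F = 4.12), Pecam1 (F = 10.3) and Tek (F = 6.76).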

How the results depend on the processing

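Counts of members called at an adjusted p of 0.05 in limma moved as follows. When only the groups compared were fitted, the KCN counts were 0 at 1 h (2 otherwise), 1 at 2 h (2) and 2 at 24 h (1), and the HCN counts 2 at 2 h (5) and 3 at 24 h (1). With the actin ratio as a covariate 3 were called at HCN 2 h, 0 at HCN 24 h, 2 over the KCN times (1), 3 over the HCN times (6), 1 in the route difference at 4 h (0), 0 in that at 24 h (3) and 4 for the KCN change among times (2). With the airway transcripts 1 was called at KCN 2 h, 0 over the KCN times and 1 in the route difference at 2 h (0). With the adipocyte transcript these were 1, 0 and 2. With the 18S level 1 was called at KCN 2 h, 2 at KCN 24 h, 2 over the KCN times and 4 for the KCN change among times. Requiring a 1.5-fold change left 1 at HCN 4 h (3), 0 over the KCN times and 2 over the HCN times. The stricter filter gave 2 at HCN 24 h, 2 over the KCN times and 3 in the route difference at 2 h, and quantile normalization gave 2 in the last. Averaging probe sets gave 2 at HCN 24 h, and 2 were called at HCN 2 h once its pair of arrays with the highest actin ratios was dropped. The cause was not tested.

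Leaving out 1 array at a time, KCN counts ranged from 0 to 2 at 1 h, 0 to 3 at 2 h and 1 to 1 at 24 h, and stayed at 0 at 4 h and 8 h. HCN counts ranged from 3 to 3 at 1 h, 3 to 6 at 2 h, 0 to 3 at 4 h and 1 to 2 at 24 h. The others were 1 to 2 over the KCN times, 5 to 7 over the HCN times, 0 to 1, 0 to 2, 0 to 1 and 2 to 3 in the route difference at 1, 2, 4 and 24 h, 1 to 4 and 4 to 6 for the KCN and HCN change among times, and 5 to 6 and 2 to 3 over time in saline and air.

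The results that reversed were Flt1 at HCN 24 h (-0.45) and its route difference at 24 h (-0.57) when its probe sets were averaged, and, with the actin ratio as a covariate, Klf4 at HCN 2 h (-0.05) and Pecam1 over the HCN times (0.01).

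Arrays of equal replicate number were not alike throughout: the 34 pairs had correlations from -0.142 to 0.318, 9 of them over 0.1. Of 35 exposed arrays 14 correlated best with the control of their own number. At 1 h all such correlations were positive (0.035 to 0.14 for KCN and 0.022 to 0.222 for HCN), with 3 best matches in each route. These values do not settle whether equal numbers mark pairs. With the replicate block 2 members were called at HCN 24 h (1 without) and 2 over the KCN times (1 without). Over all probe sets, the number called moved by over 1.5 times in 10 of 19 comparisons when only the groups compared were fitted (0 to 2.38 times the main number). It did so in 6 of 19 with the actin ratio (0.16 to 1.49 times), in 2 of 19 with the 18S level (0.0319 to 1.3 times) and in 26 of 302 fits without 1 array (0.0333 to 2.48 times). Median centring moved no result on the members across its threshold (190 of 190).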
